A study of Rattus norvegicus with 6 samples.

Results

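Cells hold reactive oxygen and reactive chemicals in check with a small set of thiol systems, and the genes of these systems were followed here in injured rat spinal cord with and without electrical stimulation. Members were taken by a rule on gene names, which was chosen with earlier results of these data known. It covers the glutathione transferases, glutathione peroxidases, peroxiredoxins, thioredoxin genes, superoxide dismutases and metallothioneins. It also covers the named genes of glutathione synthesis and recycling, catalase, Nqo1, Nfe2l2 and Keap1. The rule found 73 of the 32623 genes of the expression table. Srxn1, which the rule also names, was not analysed here.

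Spinal cord RNA came from Wistar female rats of 8 weeks, all of them labelled as a model of spinal cord injury. ES libraries (n = 3) came from the injury model with electrical stimulation, and SCI libraries (n = 3) from the same model without it. No uninjured cord is among the samples, and neither the level, age and kind of the injury nor the site and schedule of the stimulation is stated in the labels. Whether every library stands for its own rat is not stated either, so the p-values refer to the variation among libraries, part or all of which may be technical. Poly(A) RNA was sequenced, and expression was given in FPKM, the fragments per kilobase of gene scaled to the number of fragments of the library. From the smallest steps between FPKM values, the libraries held an estimated 13900000 to 16100000 fragments in ES and 16300000 to 18600000 in SCI.

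Glutathione is a tripeptide made by glutamate-cysteine ligase and glutathione synthetase. Glutathione peroxidases spend it on peroxides, transferases attach it to reactive molecules, and glutathione reductase restores it with NADPH. Thioredoxins and peroxiredoxins form a parallel relay, superoxide dismutases turn superoxide into hydrogen peroxide, and metallothioneins bind zinc and copper through clustered cysteines. In nervous tissue much of this equipment belongs to astrocytes and other glia, and the transcription factor NRF2, held back by KEAP1, induces many of its genes through antioxidant response elements, while MTF1 drives metallothioneins through metal response elements.

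Promoter sequences of 61 of the 73 members were found in a RefSeq table of build GRCr8, and the 250 bases before the start were searched on both strands. The antioxidant response element core, TGACNNNGC, occurred in 13 of these 61 genes (21.3%) and in 11.0% of the 27457 genes of the table. A gene with several listed starts was counted once, if the bases before any of them held the core. The metal response element core, TGCACNC or TGCGCNC, occurred in 14 of the 61 (23.0%) and in 22.5% of the table. At least 2 metal cores were held by 7 members (11.5%) and by 5.52% of the table. A match of letters is a description of the window and not evidence that a factor binds there. Shown first are Gstp1 (chr1:210769706-210769955, minus strand) and Prdx1 (chr5:135383656-135383905, plus strand), because they carry the same antioxidant word, TGACTCAGC, in capitals here on the gene's own strand for Gstp1 and as its complement for Prdx1, and their transcripts moved in opposite directions. That word also contains TGACTCA, the letters read by AP-1 factors.
Gstp1: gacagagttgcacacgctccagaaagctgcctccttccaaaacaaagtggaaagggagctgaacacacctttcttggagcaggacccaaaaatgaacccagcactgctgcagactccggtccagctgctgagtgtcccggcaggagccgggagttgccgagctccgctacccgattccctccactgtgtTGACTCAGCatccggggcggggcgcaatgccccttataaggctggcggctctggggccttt
Prdx1: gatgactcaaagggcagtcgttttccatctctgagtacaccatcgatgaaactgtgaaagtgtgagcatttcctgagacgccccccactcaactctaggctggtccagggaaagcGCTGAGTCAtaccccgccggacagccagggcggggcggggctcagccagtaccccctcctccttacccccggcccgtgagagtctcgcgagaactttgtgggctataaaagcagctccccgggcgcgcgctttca
The capitals lie 61 bases before the start of Gstp1 and 135 bases before that of Prdx1. Next are Mt2A (chr19:10838709-10838958, minus strand) and Mt3 (chr19:10856081-10856330, minus strand), metallothionein genes that both fell, with every metal core in capitals.
Mt2A: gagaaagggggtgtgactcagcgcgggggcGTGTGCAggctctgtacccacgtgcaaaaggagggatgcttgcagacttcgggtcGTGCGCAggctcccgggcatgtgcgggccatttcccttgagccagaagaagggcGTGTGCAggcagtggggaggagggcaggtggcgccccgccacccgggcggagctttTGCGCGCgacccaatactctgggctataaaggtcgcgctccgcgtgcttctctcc
Mt3: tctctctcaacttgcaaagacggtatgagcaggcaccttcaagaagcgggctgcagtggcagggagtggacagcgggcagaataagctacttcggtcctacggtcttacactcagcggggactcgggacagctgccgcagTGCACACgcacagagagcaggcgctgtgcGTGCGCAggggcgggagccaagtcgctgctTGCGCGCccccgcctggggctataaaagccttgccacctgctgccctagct
Mt2A held 4 metal cores and Mt3 held 3, and Mt2A also held the word TGACTCAGC, 237 bases before its start. All these sequences are written in the direction of transcription.

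Of the 73 genes, 62 averaged 0.5 FPKM or more across both groups and were tested, with means from 1.27 to 751 FPKM. The remaining 11 did not reach that level in this tissue. Gpx5, Gpx6, Gsta2, Gsta5, Gstm6l, Mt4 and Txndc8 were listed at 0 throughout, and Gsta3, Gstm3l, Gstt4 and Txndc2 never exceeded 0.102 FPKM. Among the 62 tested genes 11 rose with stimulation (17.7%) and 27 fell (43.5%) at an adjusted p under 0.05 by limma, with Benjamini-Hochberg adjustment over all 15750 genes tested. Across all those genes 17.4% were higher in ES and 27.6% lower, so the share that rose was near the background and the share that fell was above it. Every ES library lay above every SCI library for 12 of the genes, and below for 28, against 21.9% and 34.6% of all tested genes. The median log2 fold change of the 62 was -0.09, with a range of -0.96 to 0.75, and that of all genes was -0.06. Fold changes on the log2 scale are of FPKM + 1, which understates those of genes at a few FPKM, while folds without that mark are ratios of mean FPKM.

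**Figure D1:**
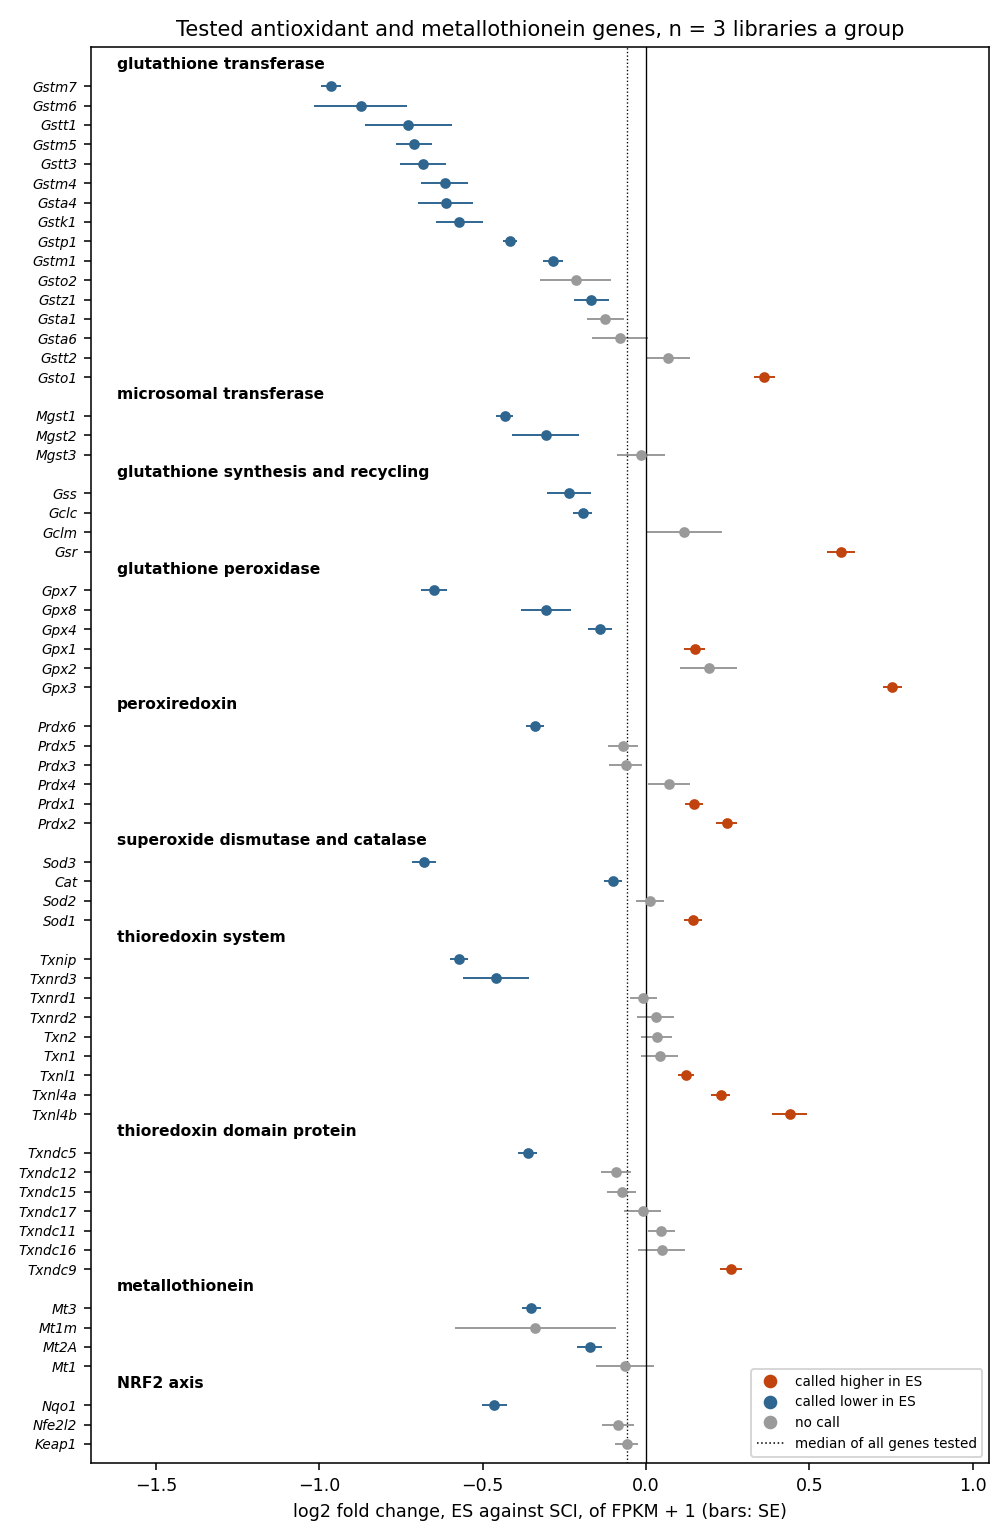
Log2 fold change of FPKM + 1, ES against SCI, for the 62 tested genes grouped by role, 3 libraries a group. Points are limma estimates and bars their SE, coloured by the call, and the transferases sit mostly left of 0, while peroxidases, peroxiredoxins and thioredoxin genes lie on both sides.

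Counts of the role groups below are to be read against the shares of all tested genes, 17.4% higher and 27.6% lower in ES. Glutathione transferases moved mostly one way, since 11 of 16 tested cytosolic and kappa genes fell, 1 rose, and 4 did not pass. The summed level of this class was 730 to 742 FPKM in the ES libraries and 955 to 973 in the SCI libraries, with no overlap. The median log2 fold change was -0.49, and after quantile normalization, rescaling to equal totals or median centring 10 to 12 of the 16 were called lower and 1 higher. Of all tested genes 18.9% to 35.5% were lower and 13.1% to 25.5% higher under these scalings. The mu class, cytosolic enzymes that conjugate a broad range of electrophiles, fell in all 5 of its tested genes under each of these scalings. The 7 mu genes lie together on chromosome 2 within 154.1 kb, from 210685197 to 210839295 in the coordinates of the deposited table, whose genome build no source used here gives.

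Gstm7 measured 28.4, 29.2 and 27.8 FPKM in ES replicates 1 to 3 and 56.0, 57.8 and 55.9 in SCI replicates 1 to 3. It was 1.99-fold lower with stimulation (log2 -0.96, SE 0.03, adjusted p = 4.12e-06 by limma). Gstm5, of the same cluster, measured 37.9, 42.8 and 42.7 FPKM in ES and 67.2, 65.8 and 70.6 in SCI, a 1.65-fold fall (log2 -0.71, SE 0.05, adjusted p = 0.000124 by limma). For both genes the groups stood far apart, and the replicates of a group differed by a few FPKM. Gstm1, the most abundant of the cluster, was at 117 ± 0.742 FPKM (SD, n = 3) in ES and 142 ± 5.13 in SCI, so its decrease was 1.22-fold. Gstm4 fell 1.59-fold, to 9.82 ± 0.905 from 15.6 ± 0.910 FPKM (SD, n = 3). Gstm6 stood at 0.940, 0.388 and 0.510 FPKM in ES and 1.76, 1.92 and 2.10 in SCI, which corresponds to an estimated 7 to 45 fragments a library. It is the only member marked significant in the authors' deposited table, which gives it a log2 change of -1.65 and a q-value of 0.000782. The mark does not follow the q-value of the authors' test alone. Unmarked Gpx3 and Gstm7 have q-values of 3.89e-27 and 8.13e-26 there, at smaller log2 changes of 0.76 and -0.99. Mu genes are close in sequence, and the annotated span of Gstm7 encloses Gstm6 and Gstm3l, so how the authors' software divided shared fragments among them could move these values.

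Gstp1, the pi-class enzyme, lies on chromosome 1 (219291679 to 219294147 in the table's coordinates) and is a known marker protein of oligodendrocytes in adult rodent brain. It was the transferase with the highest level, at 300, 311 and 309 FPKM in ES and 406, 412 and 411 in SCI. All ES libraries were below all SCI libraries, a 1.34-fold fall (log2 -0.42, SE 0.02, adjusted p = 2.67e-05 by limma). In the same libraries all 10 oligodendrocyte marker genes rose.

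Among the other classes, Gstt3 and Gstt1 of the theta class fell 1.64-fold and 1.75-fold, while Gstt2 stood at 13.9 ± 0.550 FPKM in ES and 13.2 ± 1.12 in SCI (n = 3). The mitochondrial kappa enzyme Gstk1 fell 1.51-fold, and the alpha enzyme Gsta4, which handles the lipid peroxidation product hydroxynonenal, fell 1.55-fold. Gsta1, at 63.1 ± 3.46 against 68.9 ± 4.11 FPKM (n = 3), overlapped between groups and did not pass (adjusted p = 0.117 by limma), although it passed without SCI replicate 2 (adjusted p = 0.0447) and after rescaling to equal totals (0.0260). Gstz1, the zeta enzyme of tyrosine breakdown, was called lower (1.13-fold, adjusted p = 0.0456 by limma), but not without ES replicate 2 or 3 or any 1 of the SCI replicates (adjusted p = 0.0676 to 0.119), nor after quantile normalization (0.101) or median centring (0.303).

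Gsto1, an omega enzyme with thioltransferase and dehydroascorbate reductase activity, was the exception in the group. It measured 64.3, 63.3 and 64.0 FPKM in ES and 48.6, 51.6 and 48.3 in SCI. That is a 1.29-fold rise without overlap (log2 0.36, SE 0.03, adjusted p = 0.00025 by limma). Gsto2, whose annotated span encloses that of Gsto1, was at 1.26 ± 0.150 FPKM in ES and 1.63 ± 0.284 in SCI (n = 3). It did not pass (adjusted p = 0.152 by limma). The Gsto2 transcript that gives this span was at 0.176 FPKM in ES replicate 1 and at 0 in all other libraries.

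**Figure D2:**
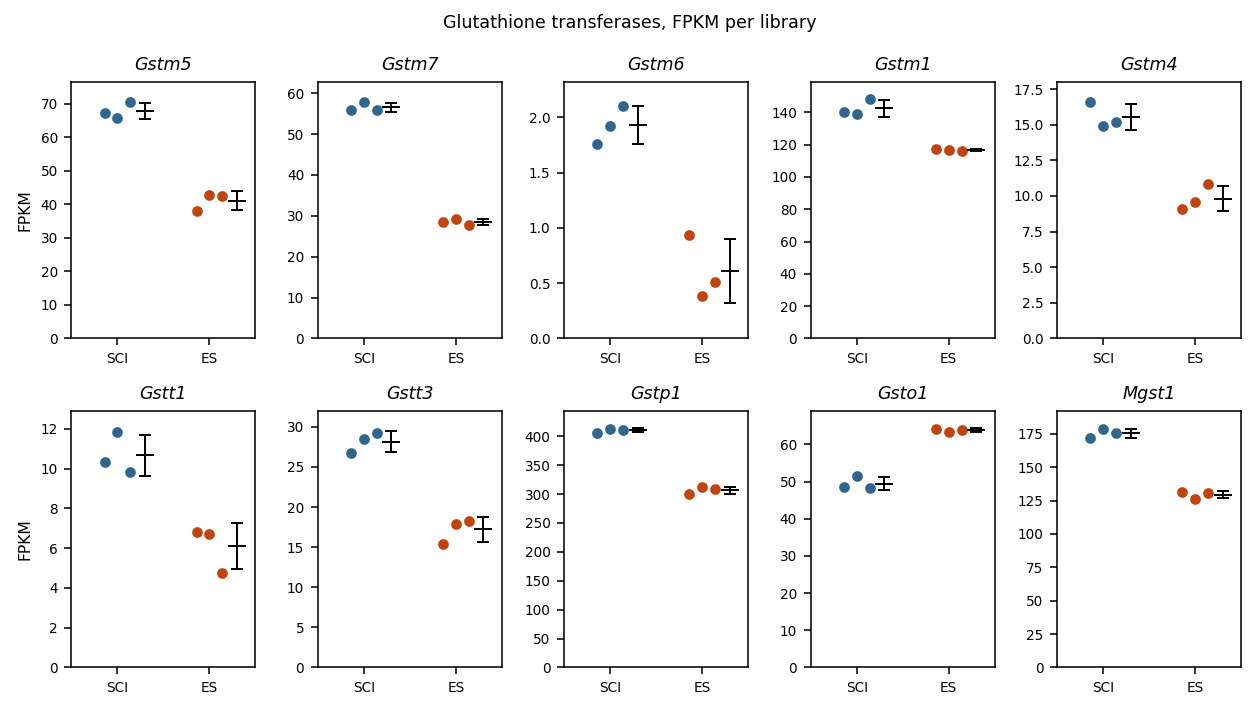
FPKM of 10 transferase genes in each library (points), with the group mean as a line and the SD as bars, n = 3 libraries a group and a separate linear axis from 0 for each gene. ES points lie below SCI points for all genes shown except Gsto1, which is higher in ES.

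Microsomal transferases are membrane proteins of the same activity but another fold. Mgst1, which protects the outer mitochondrial and endoplasmic reticulum membranes, measured 132, 126 and 131 FPKM in ES and 172, 179 and 175 in SCI. It fell 1.35-fold (log2 -0.43, SE 0.03, adjusted p = 5.24e-05 by limma), a change close in size to that of Gstp1. Mgst2, a leukotriene C4 synthase, was at 16.9 ± 1.93 and 21.1 ± 2.33 FPKM (n = 3). Its groups overlapped and its call (adjusted p = 0.0494 by limma) was lost without ES replicate 2 or 3, or SCI replicate 1 or 2 (adjusted p = 0.116 to 0.136), with a pseudocount of 0.1 or 0.01 (0.0508 and 0.0514), and after quantile normalization (0.0798) or median centring (0.134). Mgst3 was at 55.9 ± 2.42 in ES and 56.7 ± 5.52 in SCI, and did not pass (adjusted p = 0.879).

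The glutathione cycle itself moved in both directions. Gsr, the reductase that regenerates glutathione with NADPH, rose from 11.6, 12.1 and 12.5 FPKM in SCI to 18.9, 19.2 and 18.3 in ES. The rise was 1.55-fold (log2 0.60, SE 0.04, adjusted p = 8.60e-05 by limma), and no library of a group came near the other group. Gclc, the catalytic subunit of the rate-limiting ligase, fell 1.15-fold, from 26.7 ± 0.164 to 23.2 ± 0.214 FPKM (n = 3, adjusted p = 0.00201 by limma). Gclm, the modifier subunit of the same enzyme, was at 9.29, 12.6 and 11.7 FPKM in ES and 9.73, 11.3 and 9.57 in SCI, with overlap and no call (adjusted p = 0.448). Gss, the synthetase, stood at 10.0 ± 0.264 against 12.0 ± 1.07 FPKM (n = 3) and was called lower (adjusted p = 0.0285 by limma). That call was lost when any 1 of the ES replicates, SCI replicate 2 or SCI replicate 3 was left out (adjusted p = 0.0541 to 0.0858), after quantile normalization (0.101) and after median centring (0.125).

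Of 6 tested glutathione peroxidases 2 rose, 3 fell and 1 did not pass. Gpx3, the secreted glutathione peroxidase of plasma and extracellular fluid, showed the largest increase among the 62 genes. It measured 162, 163 and 160 FPKM in ES and 95.2, 92.7 and 98.9 in SCI, a 1.69-fold rise (log2 0.75, SE 0.03, adjusted p = 7.91e-06 by limma). Gpx7 and Gpx8, peroxidases of the endoplasmic reticulum that serve protein folding, were both lower. Gpx7 measured 17.9, 18.3 and 17.3 FPKM in ES and 29.8, 28.0 and 28.0 in SCI, a 1.60-fold fall (adjusted p = 4.98e-05 by limma). Gpx8 was at 40.7, 47.6 and 50.2 FPKM in ES and 54.9, 57.6 and 58.8 in SCI, and its fall (1.24-fold, adjusted p = 0.0172) was lost without SCI replicate 3 (adjusted p = 0.0551) and after median centring (0.0608). Both pairs of groups were separate, but the ES libraries of Gpx8 were spread over a wider range than those of Gpx7.

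Gpx1, the abundant cytosolic peroxidase, was at 484 ± 10.4 FPKM in ES and 436 ± 16.0 in SCI (n = 3). Its 1.11-fold rise (adjusted p = 0.0103 by limma) did not pass after quantile normalization (adjusted p = 0.523) or rescaling to equal totals (adjusted p = 0.0938). Gpx4, which reduces lipid hydroperoxides and guards cells from ferroptosis, fell 1.10-fold, from 98.8 ± 4.65 to 89.5 ± 0.596 FPKM (n = 3, adjusted p = 0.0217 by limma). The Gpx4 call was lost on leaving out any 1 library other than SCI replicate 2 (adjusted p = 0.0527 to 0.0686) and after median centring (0.343). Gpx2, a peroxidase best known from the gut, was at 8.02 ± 0.900 against 6.88 ± 0.509 FPKM and did not pass (adjusted p = 0.122), but was called higher after quantile normalization (0.0409) and median centring (0.0376).

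Of the 6 peroxiredoxins, peroxidases that work through a reactive cysteine, 2 rose, 1 fell and 3 did not pass. Prdx2 measured 253, 245 and 249 FPKM in ES and 208, 219 and 203 in SCI, a 1.19-fold rise (log2 0.25, SE 0.03, adjusted p = 0.00114 by limma). Prdx2 is abundant in red blood cells and neurons. Prdx1 stood at 383 ± 6.58 against 346 ± 10.2 FPKM (n = 3), a 1.11-fold rise (adjusted p = 0.00613 by limma) that did not pass after rescaling to equal totals (adjusted p = 0.0669). Prdx6, which reduces phospholipid hydroperoxides with glutathione and is enriched in astrocytes, went the other way. Its libraries read 78.2, 79.4 and 80.3 FPKM in ES and 97.6, 102 and 103 in SCI, and the fall was 1.27-fold (log2 -0.34, SE 0.03, adjusted p = 0.000164 by limma). Mitochondrial Prdx3 and Prdx5 and secretory-pathway Prdx4 had log2 fold changes between -0.07 and 0.07 and did not pass (adjusted p = 0.259 to 0.422). Prdx5 was called lower without SCI replicate 2 (adjusted p = 0.0251) and after rescaling to equal totals (0.0384).

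Of the superoxide dismutases and catalase 1 rose, 2 fell and 1 did not pass. Sod3, the extracellular enzyme, measured 46.9, 49.0 and 45.6 FPKM in ES and 74.5, 75.5 and 78.5 in SCI. It fell 1.61-fold (log2 -0.68, SE 0.04, adjusted p = 2.74e-05 by limma), so the genes of these secreted enzymes, Sod3 and Gpx3, moved in opposite directions. Sod1, the copper and zinc enzyme of the cytosol, was at 272 ± 4.66 in ES and 246 ± 6.19 in SCI (n = 3). Its 1.10-fold rise (adjusted p = 0.00524 by limma) did not pass after rescaling to equal totals (adjusted p = 0.0614). Sod2, the manganese enzyme of mitochondria, was at 44.1 ± 1.13 against 43.7 ± 2.11 FPKM and did not pass (adjusted p = 0.843). Cat, the peroxisomal catalase, stood at 62.3 ± 0.473 against 66.9 ± 1.54 FPKM (n = 3). It was called lower (adjusted p = 0.0212 by limma), and the call was lost on leaving out any 1 of the ES replicates (adjusted p = 0.0547 to 0.0677). After median centring its log2 fold change went from -0.10 to -0.0098 (adjusted p = 0.789).

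**Figure D3:**
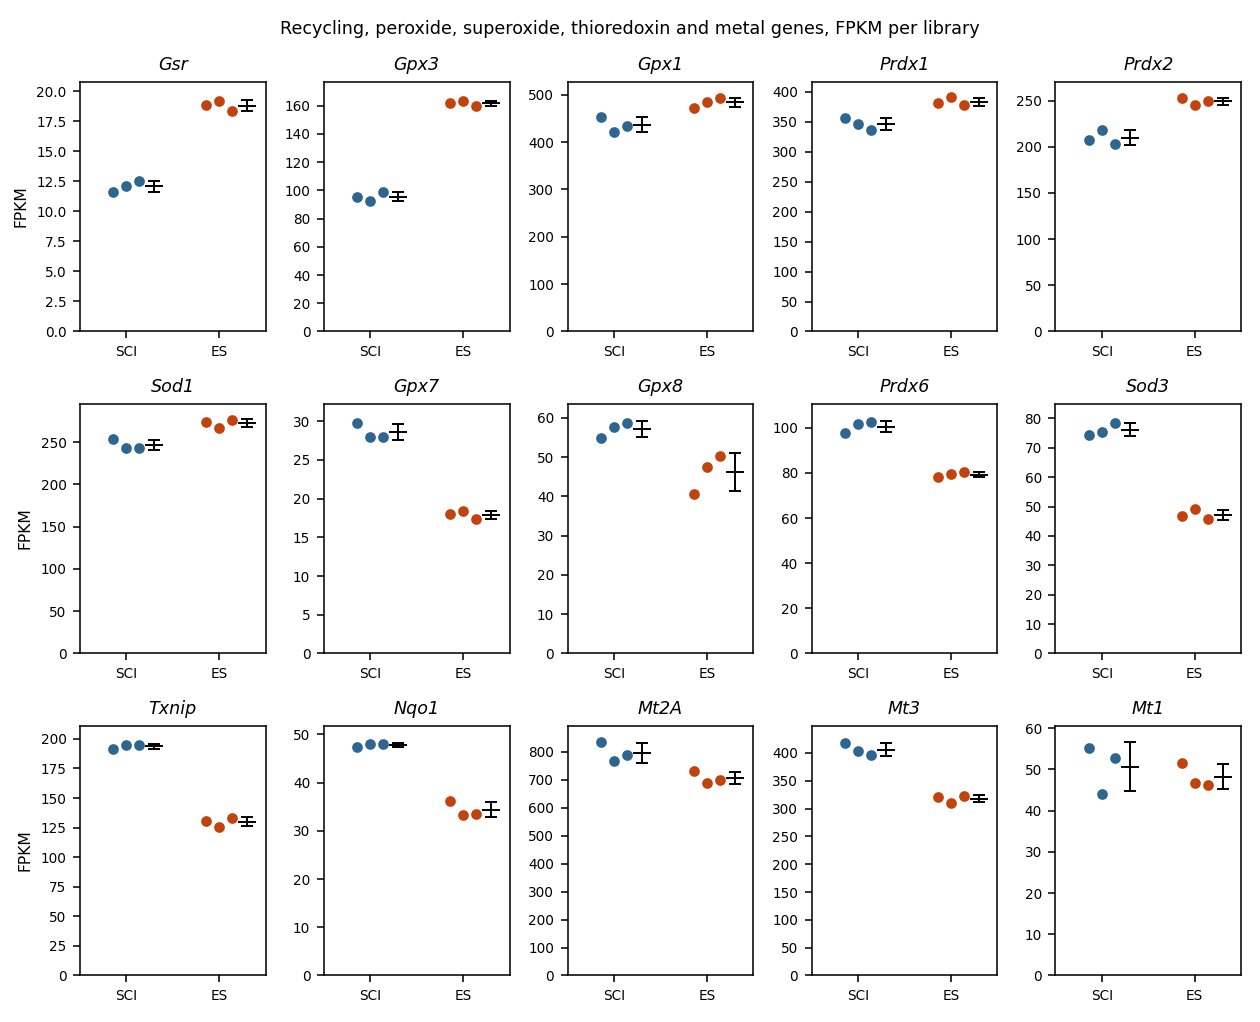
FPKM per library (points), group mean (line) and SD (bars) for 15 genes of recycling, peroxide and superoxide removal, thioredoxin control and metal binding, n = 3 libraries a group, with a linear axis from 0 for each gene. Gsr and Gpx3 are higher in ES, whereas Gpx7, Prdx6, Sod3, Txnip, Nqo1 and Mt3 are lower, and the Mt1 points of the groups overlap.

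Within the thioredoxin system the core enzymes did not pass the test, while their inhibitor fell. Txn1, the cytosolic thioredoxin, measured 204, 211 and 192 FPKM in ES and 207, 182 and 201 in SCI (adjusted p = 0.588 by limma). Mitochondrial Txn2 and the reductases Txnrd1 and Txnrd2 had log2 fold changes of 0.03, -0.01 and 0.03 (adjusted p = 0.616, 0.891 and 0.710). In all 4 of these genes the libraries of the groups overlapped. Txnip, which binds thioredoxin and restrains glucose uptake, measured 130, 126 and 133 FPKM in ES and 191, 195 and 195 in SCI. It fell 1.49-fold (log2 -0.57, SE 0.03, adjusted p = 1.85e-05 by limma). Txnrd3, the thioredoxin and glutathione reductase best known from testis, fell 1.44-fold, from 8.14 ± 0.959 to 5.64 ± 0.614 FPKM (n = 3, adjusted p = 0.0102 by limma).

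In the thioredoxin system the 3 genes that rose were thioredoxin-like. Txnl4b and Txnl4a, Dim1-family proteins linked to splicing, rose 1.39-fold and 1.18-fold (adjusted p = 0.000803 and 0.00101 by limma). Txnl4b went from 9.56 ± 0.489 to 13.3 ± 0.513 FPKM and Txnl4a from 31.9 ± 0.364 to 37.6 ± 0.678 (n = 3). Txnl1, a thioredoxin-like protein of the proteasome, rose 1.09-fold (adjusted p = 0.00890 by limma), but not after rescaling to equal totals (adjusted p = 0.151).

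Of 7 tested thioredoxin domain proteins 1 rose, 1 fell and 5 did not pass. Txndc5, a protein disulfide isomerase of the endoplasmic reticulum, measured 51.8, 51.8 and 52.3 FPKM in ES and 68.8, 67.4 and 65.1 in SCI. It fell 1.29-fold (log2 -0.36, SE 0.03, adjusted p = 0.000144 by limma), in the compartment where Gpx7 and Gpx8 also act. Txndc9, a partner of the cytosolic chaperonin, rose 1.20-fold, from 32.5 ± 0.814 to 39.1 ± 0.968 FPKM (n = 3, adjusted p = 0.00114 by limma). Txndc12 and Txndc15 were at 45.4 ± 2.05 against 48.5 ± 2.05 and 31.6 ± 0.743 against 33.4 ± 1.73 FPKM, without a call (adjusted p = 0.148 and 0.216), though both were called lower after rescaling to equal totals (0.0257 and 0.0328).

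Of 4 tested metallothioneins 2 fell and 2 did not pass. Mt2A, the member with the highest mean FPKM, measured 730, 689 and 698 FPKM in ES and 835, 766 and 787 in SCI. Its groups did not overlap, and the 1.13-fold fall (log2 -0.17, SE 0.04, adjusted p = 0.0112 by limma) did not pass after median centring (adjusted p = 0.137). Mt3, the brain-enriched form also called growth inhibitory factor, measured 322, 310 and 323 FPKM in ES and 418, 403 and 396 in SCI. It fell 1.28-fold (log2 -0.35, SE 0.03, adjusted p = 0.00016 by limma). Their promoters, printed above, hold several metal cores each. The gene named Mt1 was at 48.2 ± 2.99 against 50.6 ± 5.91 FPKM and Mt1m at 4.97 ± 1.81 against 6.40 ± 1.44 (n = 3), and neither passed (adjusted p = 0.591 and 0.304). The table places Mt1 on chromosome 17 (78793336 to 78793724) as a gene of 1 exon, whereas Mt2A and Mt3 have 3 exons on chromosome 19, where RefSeq in build GRCr8 also places Mt1. Mt1m is likewise a gene of 1 exon, on chromosome 20, and RefSeq lists it as a pseudogene. Fragments of a near-identical parent gene could be counted at such copies, so these values may not describe the expressed Mt1 gene.

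For the NRF2 axis, Nfe2l2 itself was at 45.7, 43.9 and 42.2 FPKM in ES and 43.8, 48.2 and 48.0 in SCI, and Keap1 at 16.6 ± 0.142 against 17.4 ± 0.366 (n = 3). Neither passed (adjusted p = 0.201 and 0.203 by limma), though both were called lower after rescaling to equal totals (adjusted p = 0.0381 and 0.0213). Nqo1, a quinone reductase and a standard NRF2 target, measured 36.1, 33.4 and 33.6 FPKM in ES and 47.4, 48.0 and 47.9 in SCI. It fell 1.39-fold without overlap (log2 -0.46, SE 0.04, adjusted p = 0.00015 by limma).

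Promoters of the fallen genes held the antioxidant core in 6 of 21 cases, those of the risen genes in 1 of 10, and those without a call in 5 of 21. These counts were not tested against each other. The word shared by Gstp1, Prdx1 and Mt2A thus stood before genes with log2 fold changes of -0.42, 0.15 and -0.17.

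Transcript tables listed 101 transcripts of the members, of which 79 were tested, 12 rose and 25 fell, against 12.8% higher and 19.5% lower among all 19223 tested transcripts. Gpx3, Gpx7, Gstp1, Mgst1, Sod3 and Txnip each have 1 listed transcript, with the values of the gene. Both main transcripts listed under Gstm7 fell. The transcript of 1209 bases was at 29.3 ± 0.374 against 57.3 ± 1.07 FPKM, and that of 657 bases at 28.5 ± 3.49 against 60.8 ± 4.66 (SD, n = 3). They do not overlap, at 210720720 to 210726179 and 210778388 to 210782746, with Gstm6 and Gstm3l between them. Only a transcript of 1317 bases, at 1.92 ± 0.509 against 2.62 ± 0.591 FPKM, spans both. The main transcripts may therefore be separate loci under a single gene name.

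Transcript proportions, tested by diffSplice over 2589 genes of which 13.3% passed, differed in 4 of the 12 members with at least 2 tested transcripts. Txn2 changed in form without a call in level. Its 5-exon transcript of 621 bases measured 5.85, 5.78 and 6.05 FPKM in ES and 2.04, 2.62 and 1.75 in SCI, rising from a mean share of 3.32% to 8.80% of the gene's transcripts. The 4-exon transcript of 1100 bases was at 61.1 ± 2.35 against 61.8 ± 3.22 FPKM (n = 3). The difference in proportion passed at adjusted p = 0.000307 by diffSplice, and in each alternative run for it.

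Gsto1 shifted toward its 6-exon transcript of 878 bases. That transcript measured 70.7, 44.0 and 72.9 FPKM in ES and 27.7, 23.8 and 17.7 in SCI, for a mean share of 78.7% against 39.3%. ES replicate 2 stood between the groups in share, at 57.6%, while its gene total was like those of the other ES libraries. The usage call (adjusted p = 0.0151 by diffSplice) was lost without ES replicate 1 (0.0989), ES replicate 3 (0.0709), SCI replicate 2 (0.0718) or SCI replicate 3 (0.0880), and without ES replicate 2 the adjusted p was 8.65e-06. For Gstm7 and Prdx6 the usage calls were weaker (adjusted p = 0.0202 and 0.0443 by diffSplice). The main transcripts of Gstm7 do not overlap on the chromosome, so its call may not describe forms of a single gene. The Gstm7 call was lost without ES replicate 1 (0.119), ES replicate 3 (0.120) or SCI replicate 3 (0.0968) and with a pseudocount of 0.1 (0.168) or 0.01 (0.212), and that of Prdx6 without any 1 library other than ES replicate 1 (0.0693 to 0.148). In Prdx6 the transcript that differed was a retained intron at 0.347% of the gene's transcripts in ES and 0.992% in SCI. Gpx4 fell just short of a usage call (adjusted p = 0.0532 by diffSplice). It passed with a pseudocount of 0.1 or 0.01 (0.0489 and 0.0486), and without ES replicate 2 (0.0467) or SCI replicate 2 (0.00658).

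**Figure D4:**
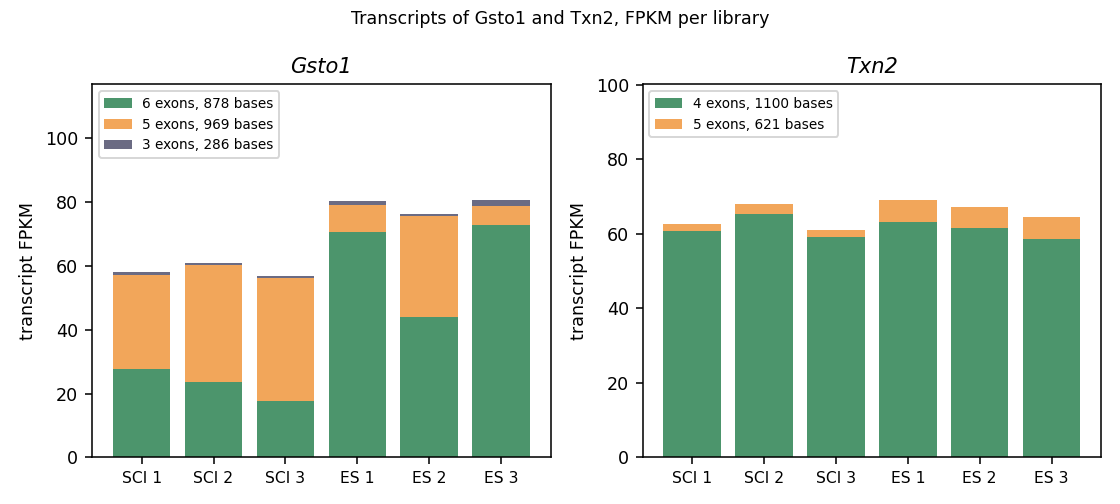
Stacked transcript FPKM of Gsto1 (left) and Txn2 (right) in the 6 libraries, each colour a tested transcript named by its exons and length. The 6-exon form takes most of Gsto1 in ES replicates 1 and 3 and less in ES replicate 2, and the 5-exon form of Txn2 is a thin band that is larger in all ES libraries.

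Outside the members, 8 lists of related genes were measured, with 132 genes tested, 34 higher (25.8%) and 38 lower (28.8%) in ES. Across all 15750 tested genes the shares were 17.4% and 27.6%, so the share that rose was above the background and the share that fell was near it. The counts of single lists below are to be read against the shares of all genes. Hmox1, the heme oxygenase that NRF2 and heme both induce, rose 2.80-fold, from 102, 101 and 101 FPKM in SCI to 287, 279 and 286 in ES (adjusted p = 2.77e-07 by limma). Of the 18 tested genes of the other NRF2 target list 5 rose and 7 fell. Akr1b8, an aldo-keto reductase, rose 1.97-fold, and Aox1, aldehyde oxidase, fell 1.88-fold (adjusted p = 0.000144 and 6.98e-05). Nqo1 and Hmox1 therefore moved in opposite directions in the same libraries. Of the 15 partners and regulators of NRF2, 4 rose and 2 fell. Park7, the oxidation sensor DJ-1, rose 1.37-fold and the related factor Nfe2l1 fell 1.54-fold, while Nfe2l3 rose 1.96-fold at 1 to 3 FPKM.

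Supply of the building blocks was mixed. Of 14 tested genes of cysteine supply and glutathione turnover 5 rose and 4 fell. Slc1a1, the neuronal transporter of glutamate and cysteine, rose 2.29-fold, from 7.12 ± 1.08 to 16.3 ± 0.351 FPKM (n = 3, adjusted p = 0.000175 by limma). Cbs, which starts the making of cysteine from homocysteine, fell 1.83-fold, and Slc3a2, the heavy chain of the cystine antiporter, fell 1.30-fold. Genes listed under NADPH supply, not all of which make NADPH themselves, rose in 6 of 12 and fell in 2. Those counts became 3 and 4 after rescaling to equal totals. Tkt, a transketolase, rose 1.28-fold and Idh1, the cytosolic isocitrate dehydrogenase, rose 1.25-fold (adjusted p = 3.20e-05 and 0.000186 by limma). Of 15 glutaredoxin, glyoxalase and related genes 5 rose and 3 fell. Glo1 and Hagh, which clear methylglyoxal with glutathione, rose 1.39-fold and 1.19-fold. Ptgds, a prostaglandin D synthase of meninges and oligodendrocytes, fell 2.81-fold, from 4328 ± 51.7 to 1543 ± 17.8 FPKM (n = 3).

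Superoxide sources rose in 6 of 11 tested genes and fell in 2, counts that became 5 and 4 after rescaling to equal totals. Rac2, Ncf1 and Ncf4, parts of the phagocyte NADPH oxidase, rose 1.61-fold, 1.33-fold and 1.42-fold (adjusted p = 2.43e-05, 7.96e-05 and 0.000309 by limma). Their membrane partner Cyba fell 1.22-fold, from 230 ± 11.2 to 188 ± 3.66 FPKM (n = 3). Zinc and copper genes moved one way: 14 of 27 fell and none was called higher, at a median log2 fold change of -0.18. That count depended on the scaling, with 7 lower and 6 higher after median centring and 16 lower and none higher after rescaling to equal totals. Slc39a12, a zinc importer of astrocytes, measured 5.35, 4.55 and 5.17 FPKM in ES and 19.0, 20.7 and 20.8 in SCI, a 4.01-fold fall (adjusted p = 6.48e-06 by limma). Importers Slc39a10 and Slc39a1 fell 1.47-fold and 1.15-fold, and Mtf1, the factor that reads metal response elements, was at 3.19 FPKM in both groups (adjusted p = 0.964). Of 20 genes of selenoprotein synthesis and selenium supply 3 rose and 4 fell. Sephs2, which makes the selenium donor for Gpx1, Gpx3, Gpx4 and the thioredoxin reductases, rose 1.91-fold, and Selenop, the selenium carrier, rose 1.35-fold (adjusted p = 4.17e-05 and 0.00173 by limma), while Selenof of the endoplasmic reticulum fell 1.19-fold.

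**Figure D5:**
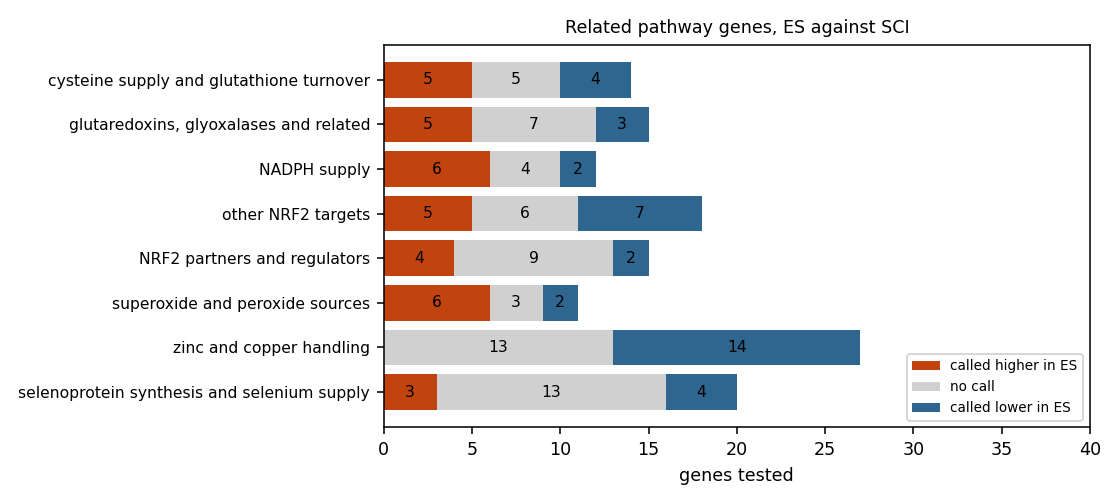
Number of tested genes called higher in ES (left), not called (grey, middle) and called lower in ES (right) for 8 lists of related genes, by limma at an adjusted p under 0.05. Zinc and copper handling is the list with no gene called higher and 14 called lower, and the other lists hold calls in both directions.

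Marker genes of cell types moved in the same libraries, and their part in the changes above was not tested. In bulk tissue, fewer cells of a type and less RNA per cell cannot be told apart. Spinal cord identity was present, with all 9 regional and motor neuron markers detected and 3 of them lower (50.5 to 56.7 FPKM in ES against 69.2 to 72.2 in SCI). Of 10 astrocyte markers 9 fell, and their summed level was 4058 to 4176 FPKM in ES and 5715 to 5795 in SCI. All 8 fibroblast and meningeal markers that were measured fell (2600 to 2622 against 5781 to 5879 FPKM), at a median log2 fold change of -0.38. Ptgds, whose levels are given above, makes up most of that sum in both groups, so the sum mainly follows this single gene. Also lower were 5 of 6 tested endothelial markers (67.8 to 69.1 against 115 to 122 FPKM, with Cldn5 listed at 0 in all libraries) and 5 of 7 Schwann cell markers (901 to 904 against 1493 to 1507 FPKM). The other 2 markers of that list, Sox10 and Mal, rose. All 10 oligodendrocyte markers rose (13596 to 13623 against 8576 to 8660 FPKM), although after rescaling to equal totals 9 passed. All 7 tested erythrocyte markers rose (3090 to 3300 against 538 to 566 FPKM), as did 7 of 10 for neurons (512 to 531 against 401 to 421 FPKM) and 7 of 10 for microglia and macrophages (3212 to 3316 against 2507 to 2589 FPKM). Neutrophil markers rose in 5 of 8 and fell in 1, ependymal markers fell in 4 of 5 (2 of 5 after quantile normalization or median centring), and oligodendrocyte precursor markers rose in 3 and fell in 2 of 6. Mt3, Prdx6, Mgst1, the mu transferases and Slc39a12 fell, as did most astrocyte markers. Prdx2, Slc1a1 and Hmox1 rose, as did most erythrocyte, neuron and phagocyte markers. Ptgds fell with the meningeal markers, a list that also contains it. Other genes moved against such markers. Gstp1 fell while all 10 oligodendrocyte markers rose, and Cyba fell while 7 of 10 microglia and macrophage markers rose. None of these pairings was tested.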

How the data were processed

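RNA of 6 rat spinal cord libraries, 3 ES and 3 SCI, was grouped by the treatment label, and table columns were matched by treatment and replicate number, with 0 value columns left unmapped. The authors deposited FPKM per gene and transcript, and wrote 0.0001 for 0, which was set back to 0. The submitters' processing notes name HISAT and StringTie, without versions. Of strand handling, genome build and annotation no source used here says anything, and multi-mapped fragments may be split among close paralogs. The authors' deposited tables also hold a fold ratio, its log2, and a p-value and q-value from a test not given in the sources used here. Those were used only for Gstm6, Gpx3 and Gstm7.

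Genes with a mean of at least 0.5 FPKM entered a moderated two-sided test of limma (version 3.58.1, R 4.3.3) on log2(FPKM + 1), which models a mean-variance trend, with Benjamini-Hochberg adjustment over all genes, and called at an adjusted p under 0.05. The same was done for transcripts, and diffSplice tested proportions by Simes p. The method was tested on simulated data. Gene-level FPKM is not always the sum of transcript FPKM, so shares refer to transcript sums. Members and lists were chosen with earlier results of these data known. Named genes are up to 4 per role by smallest p, called genes against their role's majority and the highest of each role; Gstm, Gstt, Gstk1, Gsta1, Gsta4, Gsto2, Gstz1, Gpx2, Gpx4, Prdx3, Prdx4, Txn2, Txnrd1 and Txnrd2 outside that rule were added after their values were seen, to complete their families, as was Mtf1 among up to 3 genes per list, with Cyba. Library pairs correlated at 0.9929 to 0.9937 within and 0.9841 to 0.9854 across groups (Pearson, log2 scale over genes). Deviations from the group mean correlated at r = -0.026, -0.026 and -0.029 for same-numbered libraries, and at -0.053 to 0.080 for differently numbered ones. With 3 libraries a group this cannot decide whether a number marks a pairing or a shared batch. RefSeq sequences (GRCr8) were matched by symbol, and no coordinate was moved between builds. Counting error limits genes of few fragments, and fragments were not marked by molecular identifiers. The alternatives were other pseudocounts, filters, scalings, thresholds, a replicate block and leaving out each library. A gene that the naming rule also covers is not reported here.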

Additional observations from a re-analysis of the deposited data

How the results depend on the processing

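Among the 62 genes, no call turned into an opposite call in any of the 17 alternatives, and 36 sign changes occurred among values called in neither setting (19 genes, at most 0.08 on the log2 scale). A fold minimum of 1.5 left 2 members higher and 9 lower, 8 related genes higher and 5 lower, and 4 member transcripts higher and 11 lower. Rescaling to equal totals gave 7 members higher and 33 lower, quantile normalization 11 and 24, and median centring 13 and 20, with 25 related genes lower. Median log2 fold changes of all genes were -0.12, 0.01 and 0.03 under these scalings, and all genes split into 2070 higher and 5590 lower, 3414 and 3257, and 4021 and 2975, against 2747 and 4341. The cause was not tested.

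Leaving out 1 library gave 11 members higher and 22 to 26 lower, 30 to 34 related genes higher and 31 to 34 lower, 11 to 12 member transcripts higher and 21 to 24 lower, and 1 to 4 usage calls: 2 without ES replicate 1, and 1 without ES replicate 3 or SCI replicate 3. With the replicate number as a block, 11 members were higher and 27 lower, all genes gave 2466 and 3851 calls, and 2 usage calls were made (Gsto1 and Txn2). The block changed no member's call in level. Without the variance trend Cat, Gpx4, Gstz1 and Mgst2 lost their calls, as did Gstz1 and Mgst2 without the filter. Depth limits Gstm6, Mt1m and Gsto2, with at most 63 fragments a library.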
